A study of Mus musculus with 6 samples.

Results

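The genes described here are the solute carriers (SLC), the largest group of membrane transport proteins in mammals, as they were measured in mouse liver with or without Mul1 under a high-fat diet (HFD). They were chosen by name alone, as every deposited gene whose symbol starts with Slc and a digit or with Slco. This gave 75 of 3542 genes. Of these, 74 are annotated as protein-coding and 73 are transporters, since Slc9a3r1 encodes a scaffold protein that binds transporters and Slc2a4rg-ps is a pseudogene. Their symbols cover 35 families. The deposited genes had been selected by the authors on these same libraries. In the authors' own test every one of them has an adjusted p-value no greater than 0.05 and a log2 fold change of 1 or more in size, limits read from the deposited table, while the methods state a stricter adjusted p of 0.01, so each of the 75 already differed in that test and a call made here is not independent evidence that it differs.

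mRNA-seq was done on liver from 3 Mul1(+/+) and 3 Mul1(-/-) mice. All 6 mice were put on the HFD, with 60% of calories from fat, at 8 weeks of age and stayed on it for 16 weeks. The Mul1(-/-) mice lacked the gene in the whole body, so effects that arise in the liver and effects that reach it from other organs cannot be told apart, and no mice on regular chow are among these samples. The labels describe the tissue as liver and the cells as hepatocytes, and they do not give the sex of these mice, while the study used both sexes. Mul1, which encodes a ubiquitin ligase of the outer mitochondrial membrane, had normalized read counts of 3172, 3232 and 3423 in Mul1(+/+) and of 1037, 965 and 1753 in Mul1(-/-). Its transcript was therefore still counted in Mul1(-/-) liver, at 38.2% of the Mul1(+/+) mean.

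SLC proteins carry amino acids, sugars, nucleosides, metals, ions, vitamins, bile acids and drugs across the plasma membrane and the membranes of organelles, mostly as exchangers, as cotransporters driven by sodium or protons, or as facilitated carriers. In the liver they take up nutrients from the portal blood, return solutes to the circulation, supply bile formation and, as the SLC25 carriers of the inner mitochondrial membrane, pass metabolites between mitochondria and cytosol. Families are numbered by sequence similarity, so members of a family often, though not always, share a kind of substrate. Here the families were grouped by substrate.

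Values are normalized read counts, obtained by the authors through dividing each library's read counts by a single factor. Each difference is a log2 fold change of Mul1(-/-) over Mul1(+/+) on log2(normalized read count + 1), from limma with Benjamini-Hochberg adjustment over all 3542 genes. Because these genes had been selected on the same libraries, the adjustment does not bound the share of false calls. The adjusted p-values serve here only to rank and describe the members. A gene is said to have risen or fallen where its adjusted p was under 0.01 and its log2 fold change was beyond 1 in size. Nothing in the labels says more of the 3 replicates of a genotype than that they are separate samples. With 3 libraries per genotype an exact two-sided permutation test of 1 gene cannot go below p = 0.1, the value obtained for every member whose groups did not overlap. In liver tissue, fewer cells of a type and less RNA per cell cannot be told apart.

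Most SLC genes in the selection had less mRNA in Mul1(-/-) liver. The mean log2 value was lower in Mul1(-/-) for 53 of the 75 members, which is 70.7%, while it was lower for 43.2% of all genes of the table and for 51.9% of its 2849 protein-coding genes. It was higher for the other 22 members, against 56.8% of the table. The median log2 fold change was -1.45 over the members and 1.12 over the table. Among the 53 lower members the median was -1.57, close to the -1.43 of all lower genes, and among the 22 higher members it was 2.12 against 1.67 of all higher genes.

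By the test, 15 members fell (7.43% of the table fell) and 7 rose (16.7% of the table rose). Those that fell included Slc38a11, Slc16a13, Slc6a9, Slc25a44, Slc25a23, Slc39a5, Slc30a10, Slc38a10, Slc28a1, Slc24a5, Slc15a5, Slc35e1, Slc35b4 and Slco2b1, from the largest to the smallest change. Those that rose were Slc6a7, Slc19a3, Slc4a9, Slc1a5, Slc16a4, Slc4a3 and Slc51b. At an adjusted p under 0.05, limma called 51 members lower (42.4% of the table) and 20 higher (53% of the table). The groups did not overlap for 48 of the lower members (41% of the table did not overlap and were lower) and for 16 of the higher members (49.3% of the table), 64 in all (90.3% of the table).

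The number of calls depended on single libraries. Without Mul1(-/-) replicate 3, an alternative read beside the counts after the data had been seen because this library lay nearest Mul1(+/+), 38 members fell and 20 rose. Without Mul1(-/-) replicate 2, 0 fell and 1 rose, and without Mul1(-/-) replicate 1, 12 fell and 4 rose. Without Mul1(+/+) replicate 1, 2 or 3 in turn, 0, 0 and 1 fell and 2, 1 and 2 rose. The calls over the table shifted too, with 1078 falls and 1595 rises without Mul1(-/-) replicate 3. They were 1 and 9 without Mul1(-/-) replicate 2, and 191 and 440 without Mul1(-/-) replicate 1. Leaving out Mul1(+/+) replicate 1, 2 or 3 gave 6, 3 and 15 falls and 19, 10 and 31 rises over the table. Of the 22 called members, only Slc6a7 stayed past both limits whichever library was left out. All 53 lower and 22 higher members kept their direction under each of these settings and under each rescaling. Rescaling the libraries by the median ratio over the table moved the table's median log2 fold change from 1.12 to 0.46 and the members' median to -2.10, with 39 members falling and 4 rising, so that 9.3% of the called members rose against 31.8% on the deposited scale. Of all called genes of the table, 18.6% rose after this rescaling, against 69.2% on the deposited scale. Rescaling to equal totals without mitochondrially encoded genes gave 11 that fell and 8 that rose, 42.1% of those called, against 80.6% of the called genes of the table.

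**Figure D1:**
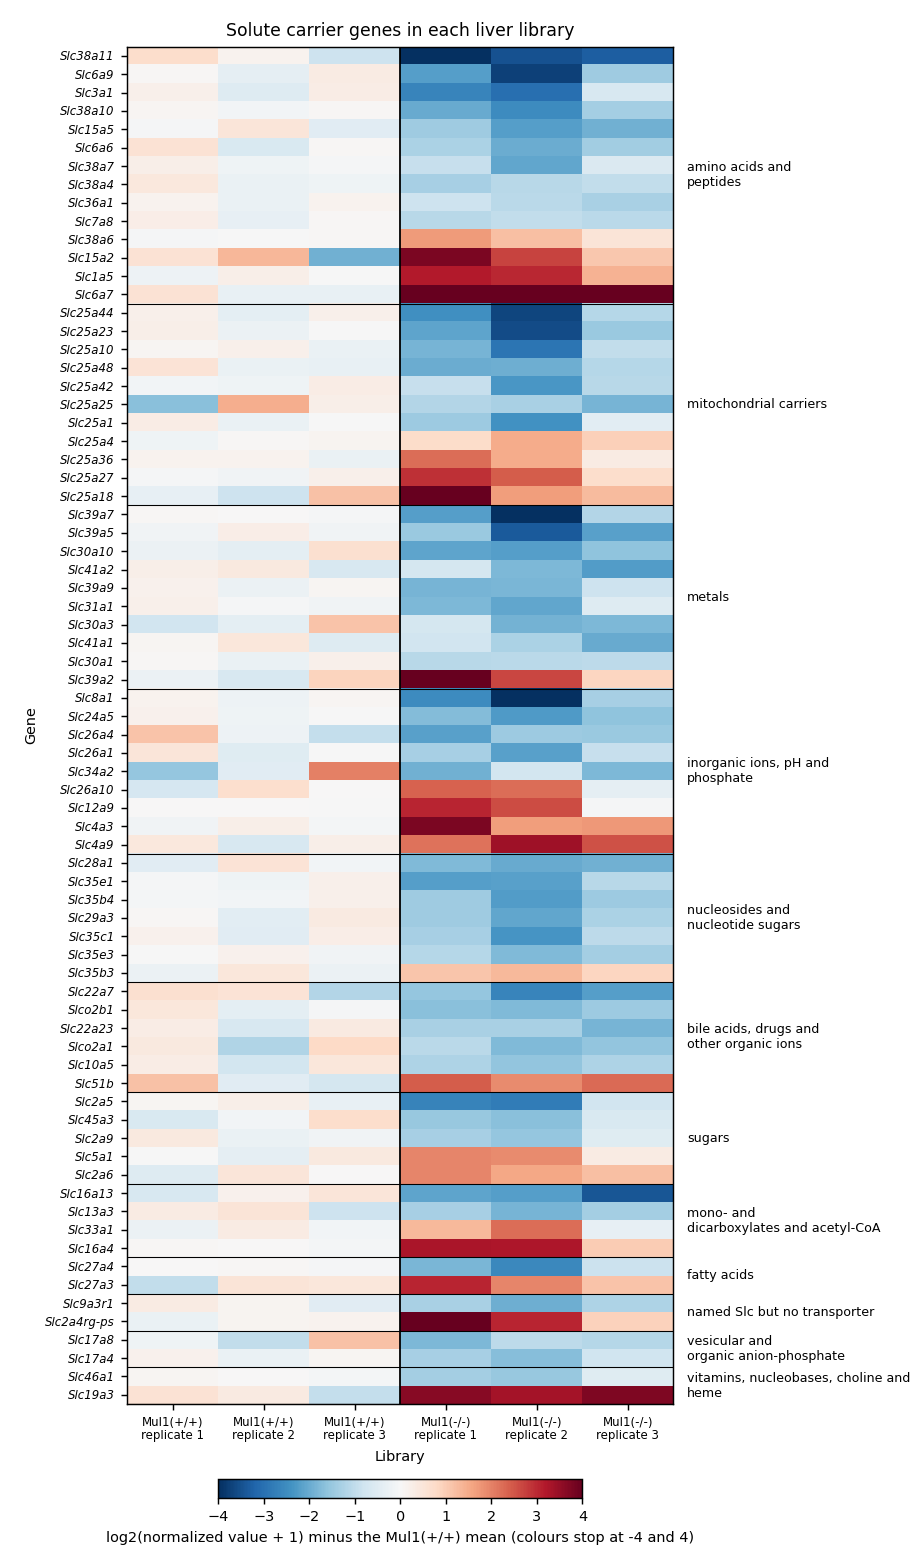
Heat map of 74 of the 75 SLC members in the 6 libraries, where colour is the log2(normalized read count + 1) minus the Mul1(+/+) mean (blue lower, red higher, colours stopping at -4 and 4) and rows are grouped by substrate class. The 52 lower members drawn are blue in the 3 Mul1(-/-) columns, and the 22 higher members are mostly red there, with 17 of them palest in Mul1(-/-) replicate 3, where 3 lie at or below the Mul1(+/+) mean.

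The lower and the higher members also differed in how abundant they were in Mul1(+/+) liver. The median of the Mul1(+/+) means was 1953 normalized read counts for the lower members and 43.8 for the higher ones, against 1463 for all lower and 56.9 for all higher genes of the table. Of the lower members, 36 of 53 had a Mul1(+/+) mean of at least 1000. Only 1 of the 22 higher members did, namely Slc33a1, and 15 were under 100. Summed over the 75 members, the normalized read counts came to 228991 ± 28965 (SD, n = 3) in Mul1(+/+) liver. In Mul1(-/-) liver they came to 95667 ± 12464 (SD, n = 3), which is 41.8%. Slc38a4 alone made up 20.8% to 28.8% of this sum in the 6 libraries. The median transcript length was 3529 bases for the lower members and 2975 for the higher ones, against 4092 and 1971 for the lower and higher protein-coding genes of the table.

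**Figure D2:**
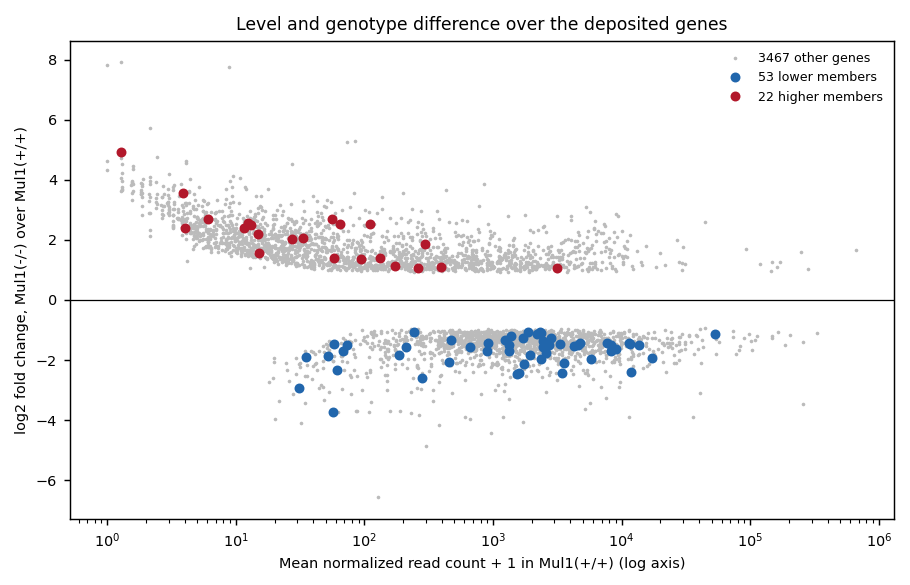
Mean normalized read count + 1 in Mul1(+/+) (log axis) against the log2 fold change for the 3542 deposited genes, with the 53 lower SLC members in blue, the 22 higher in red and the 3467 other genes in grey. Most blue points lie to the right, around a median of 1953, and most red points to the left, around a median of 43.8, and no gene lies near 0 because the table holds selected genes.

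Per kilobase of the longest annotated transcript, Slc38a4 was the most abundant member in both genotypes, with 13453 normalized read counts per kb in Mul1(+/+) and 6001 in Mul1(-/-). In Mul1(+/+) it was followed by Slc25a10 with 8479, Slc9a3r1 with 7075, Slc25a1 with 6818 and Slc25a23 with 3550 per kb. At the other end stood Slc4a3 with 1.46, Slc19a3 with 0.961 and Slc6a7 with 0.0832 per kb, each of which rose in Mul1(-/-). Their Mul1(-/-) levels of 10.5, 13.7 and 10.7 per kb ranked 67, 63 and 66 among the 75 members in that genotype.

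The amino acid and peptide carriers were the largest class, with 14 members, of which 10 were lower and 4 higher. In this class 4 fell and 2 rose, and the median log2 fold change was -1.16. Slc38a4 encodes a sodium-coupled carrier of neutral amino acids that is typical of hepatocytes, and lies on chromosome 15 from 96994820 to 97055956 (GRCm38, minus strand). Its normalized read counts were 69231, 43074 and 46386 in Mul1(+/+) and 20530, 24196 and 26066 in Mul1(-/-). The highest Mul1(-/-) library was thus well under the lowest Mul1(+/+) library. The log2 fold change of Slc38a4 was -1.14 (SE 0.39) with a limma adjusted p of 0.0218, which did not pass the limit.

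Within the same family, Slc38a11 had the largest fall of any member. It lies on chromosome 2 from 65316430 to 65364034 (minus strand), and its substrates are less well known. Its normalized read counts were 83.4, 56.7 and 28.6 in Mul1(+/+) and 1.46, 3.67 and 4.39 in Mul1(-/-), from 198 and 9 reads in all. The 2 groups lay far apart, and the ratio of read rates was 0.061, with an exact 95% interval from 0.0275 to 0.118 that covers counting error only. Slc38a11 had a log2 fold change of -3.73 (SE 0.51) and a limma adjusted p of 0.00312. Slc38a10 had 6093, 5309 and 5900 against 1426, 1003 and 2238 normalized read counts, without overlap, and fell with a log2 fold change of -1.97. Slc38a7, a lysosomal glutamine carrier, had means of 1370 and 650 and did not pass the limit. Slc38a6 was the family's exception, with 167, 170 and 180 against 564, 400.5 and 245. Its groups did not overlap and its log2 fold change of 1.14 (limma adjusted p = 0.0269) missed the limit. Parts of the Slc38a6 transcripts share at least 95% identity with transcripts of 37 other genes, and how such reads were assigned is not stated.

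Slc6a9 encodes the glycine transporter that is coupled to sodium and chloride. Its normalized read counts of 1558, 1159 and 1869 in Mul1(+/+) stood against 323, 111 and 555 in Mul1(-/-), and it fell with a log2 fold change of -2.46 (SE 0.57, limma adjusted p = 0.00854). Without Mul1(-/-) replicate 2 the value was -1.82, and the call was lost there and without any one of the Mul1(+/+) libraries. Of the exon bases of Slc6a9, 27.8% are shared with Ccdc24 on the other strand. Slc6a6, the taurine transporter, which supplies the amino acid that conjugates bile acids in mice, had 6104, 2627 and 4143 against 1666, 1026 and 1560. The groups did not overlap, and its limma adjusted p was 0.0137. Slc6a7 encodes a proline transporter known from brain. It had 1, 0 and 0 reads in Mul1(+/+) and 27, 30 and 36 reads in Mul1(-/-), and its rate was 125 times higher, with an exact 95% interval from 21.8 to 4979 that covers counting error only. Slc6a7 had the smallest limma adjusted p of the members, 0.000145, at 31.6 to 39.5 normalized read counts in Mul1(-/-).

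Slc3a1 encodes the heavy chain that brings a cystine and dibasic amino acid exchanger to the membrane. It had 3975, 2424 and 4232 normalized read counts in Mul1(+/+) and 548, 429 and 2230 in Mul1(-/-). The groups did not overlap, but Mul1(-/-) replicate 3 lay close to the lowest Mul1(+/+) library, and the log2 fold change of -2.09 (SE 0.61) had a limma adjusted p of 0.0141. It was -1.64 without Mul1(-/-) replicate 2 and -2.83 without Mul1(-/-) replicate 3, where it passed the limit. Of the exon bases of Slc3a1, 26.5% are shared with Prepl on the other strand, and whether the counting used strand is not stated. Its promoter window is shown because it is one of 2 among the members with the letters CAAAGTCCA, the core of the site bound by hepatocyte nuclear factor 4 alpha, whose own gene Hnf4a had means of 36283 and 11501 normalized read counts in Mul1(+/+) and Mul1(-/-). Windows run from 250 bases before to 50 bases after the RefSeq start of a gene (GRCm38.p6), and 63 of the 75 members had one, with 79 windows in all. The letters were found on either strand in 2.53% of the members' windows and in 0.475% of all 32851 windows. The other member with them was Slc30a3. The window of Slc3a1 is chr17:85028097-85028396 on the plus strand, printed 5′ to 3′ with these letters in capitals, 39 bases before the start.
Slc3a1: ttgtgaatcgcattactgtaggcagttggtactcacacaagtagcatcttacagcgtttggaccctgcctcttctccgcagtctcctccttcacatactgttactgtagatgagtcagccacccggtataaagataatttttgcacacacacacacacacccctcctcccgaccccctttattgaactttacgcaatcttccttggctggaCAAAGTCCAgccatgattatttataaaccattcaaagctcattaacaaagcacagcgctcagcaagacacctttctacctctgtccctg
A match of letters is a description of the sequence and not evidence of binding.

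The remaining amino acid and peptide carriers went both ways. Slc1a5, the exchanger of glutamine and other neutral amino acids, which is low in normal hepatocytes, lies on chromosome 7 from 16781340 to 16798274 (plus strand). It had 53.9, 74.4 and 62.1 normalized read counts in Mul1(+/+) and 579, 513 and 165 in Mul1(-/-). All 3 Mul1(-/-) libraries were above the Mul1(+/+) libraries, and Slc1a5 rose with a log2 fold change of 2.52 (SE 0.52, limma adjusted p = 0.00701). Slc15a5, related to the proton-coupled peptide carriers, had 173, 252 and 130 against 65.8, 37.96 and 46.6 and fell. Slc15a2, a peptide carrier known from kidney and brain, had 115, 196 and 19.6 against 1049, 500 and 164. Its groups overlapped, since Mul1(-/-) replicate 3 was under Mul1(+/+) replicate 2. Slc36a1, a proton-coupled carrier of small amino acids, and Slc7a8, a light chain of a neutral amino acid exchanger, had Mul1(-/-) means of 47.99% and 47.2% of the Mul1(+/+) means and did not pass the limit.

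Of the 11 mitochondrial carriers of family 25, 7 were lower and 4 higher, 2 fell and 0 rose, and the median log2 fold change was -1.44. For family 25, limma gave an unadjusted p under 0.05 and an adjusted p under 0.05 for each of its higher members, and 0 of them passed the limit of 0.01. As they had been selected on these same libraries, the p-values under 0.05 are not independent evidence. Slc25a44, a carrier of branched-chain amino acids, had 3858, 2557 and 3827 normalized read counts in Mul1(+/+) and 609, 265 and 1529 in Mul1(-/-). It fell with a log2 fold change of -2.42 (SE 0.60), which was -1.80 without Mul1(-/-) replicate 2 and -3.06 without Mul1(-/-) replicate 3. Slc25a23, a calcium-regulated carrier that exchanges ATP-magnesium for phosphate, had 14025, 10005 and 11772 against 2754, 982 and 4193. It fell with a log2 fold change of -2.39 (SE 0.54), or -1.80 without Mul1(-/-) replicate 2. The call of Slc25a23 was lost there and without any one of the Mul1(+/+) libraries. In both genes the lowest value was that of Mul1(-/-) replicate 2 and the groups did not overlap.

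Slc25a10 and Slc25a1, the dicarboxylate carrier and the citrate carrier, which take part in moving carbon for fatty acid synthesis out of mitochondria, were among the most abundant members. Slc25a10 had 17818, 19526 and 14114 normalized read counts in Mul1(+/+) against 4706, 2257 and 8532 in Mul1(-/-). Slc25a1 had 13692, 9395 and 10988 against 4097, 2109 and 8321. Neither pair of groups overlapped, and the limma adjusted p was 0.0113 for Slc25a10 and 0.0253 for Slc25a1. Slc25a42, the coenzyme A carrier, had 4279, 4160 and 5671 against 2478, 917 and 2181, also without overlap and with a limma adjusted p of 0.0186. Slc25a48, a carrier with a less settled substrate, had means of 895 and 276 and a limma adjusted p of 0.0108. Slc25a25, a close relative of Slc25a23, had 1700, 14809 and 6481 in Mul1(+/+), a spread of 8.71 times within the group that covered 2 of the 3 Mul1(-/-) values of 2418, 2228 and 1516.

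Of the 4 higher carriers of the family, Slc25a4, the adenine nucleotide translocator best known from heart and muscle, had 233, 273 and 281 normalized read counts in Mul1(+/+) and 434, 727 and 508 in Mul1(-/-). Slc25a36, which carries pyrimidine nucleotides, had means of 93.0 and 271, and a stretch of its transcript shares at least 95% identity with 1 other gene. Slc25a27, an uncoupling protein homologue, had means of 26.5 and 132. Slc25a18, a glutamate carrier, had 2, 1 and 8 reads against 44, 8 and 8, so that its rate ratio of 7.32 (exact 95% interval 3.81 to 15.4, counting error only) came mostly from Mul1(-/-) replicate 1.

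The metal carriers were the most one-sided of the larger classes, with 9 of 10 members lower, 2 of which fell, and a median log2 fold change of -1.48. Slc30a10, which exports manganese from hepatocytes into bile, lies on chromosome 1 from 185454848 to 185468762 (plus strand). It had 1923, 1692 and 3457 normalized read counts in Mul1(+/+) and 523, 491 and 726 in Mul1(-/-). Each Mul1(-/-) value was less than the lowest Mul1(+/+) value, and Slc30a10 fell with a log2 fold change of -1.97 (SE 0.43, limma adjusted p = 0.00784). Slc39a5, a zinc importer of the basolateral membrane, lies on chromosome 10 from 128395931 to 128401229 (minus strand). Its values of 53.9, 71.7 and 53.9 stood against 20.46, 4.90 and 12.3, and it fell with a log2 fold change of -2.34 (SE 0.50, limma adjusted p = 0.00776). The plasma membrane zinc exporter Slc30a1 had 2415, 1913 and 2689 against 1071, 1091 and 1130, a narrow range within Mul1(-/-). The groups did not overlap, and its limma adjusted p was 0.0225.

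The promoter windows of these 3 zinc and manganese carriers are shown because each holds a core of the metal response element, the site through which the zinc-sensing factor MTF-1 acts. The letters searched were TGCACNC and TGCGCNC on both strands, and neighbouring matches may overlap. They occurred in 34.2% of the members' windows, from 26 members of which 21 were lower, and in 25.7% of all windows, so they are common letters. Capitals mark the matches, which start 43 bases before and 30 bases after the start in Slc30a1 (chr1:191906531-191906830, plus strand), 233, 232 and 73 bases before it in Slc30a10 (chr1:185454598-185454897, plus strand), and 129 bases before it in Slc39a5 (chr10:128401175-128401474, minus strand).
Slc30a1: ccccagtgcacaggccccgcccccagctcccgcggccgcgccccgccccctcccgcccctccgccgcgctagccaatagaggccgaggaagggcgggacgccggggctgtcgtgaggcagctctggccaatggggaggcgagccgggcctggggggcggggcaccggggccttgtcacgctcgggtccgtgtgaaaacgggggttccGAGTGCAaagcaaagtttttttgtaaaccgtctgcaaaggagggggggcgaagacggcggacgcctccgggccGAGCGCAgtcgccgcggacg
Slc30a10: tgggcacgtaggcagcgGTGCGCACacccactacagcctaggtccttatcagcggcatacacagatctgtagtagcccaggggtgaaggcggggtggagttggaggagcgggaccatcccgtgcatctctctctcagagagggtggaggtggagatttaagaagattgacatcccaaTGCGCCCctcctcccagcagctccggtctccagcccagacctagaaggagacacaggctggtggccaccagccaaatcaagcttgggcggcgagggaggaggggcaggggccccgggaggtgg
Slc39a5: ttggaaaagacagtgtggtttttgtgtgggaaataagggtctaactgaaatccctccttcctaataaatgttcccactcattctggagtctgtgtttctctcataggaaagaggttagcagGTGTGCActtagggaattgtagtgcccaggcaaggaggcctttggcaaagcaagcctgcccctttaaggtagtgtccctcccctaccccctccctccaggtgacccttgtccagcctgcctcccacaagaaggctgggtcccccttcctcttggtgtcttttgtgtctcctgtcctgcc
The last search, for the letters TGATGNAA of the composite element of ATF4 and C/EBP factors, matched 3.8% of the members' windows and 3.97% of all windows.

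Among the other metal carriers, Slc31a1, the copper importer, had 13267, 11143 and 10368 normalized read counts in Mul1(+/+) and 3352, 2727 and 8102 in Mul1(-/-). The Mul1(-/-) values differed by more among themselves than the Mul1(+/+) values did, and the limma adjusted p was 0.0191. Slc41a2, a magnesium carrier, had 2727, 3086 and 1509 against 1432, 675 and 493. The related Slc41a1 had means of 468 and 188, which is 40.3% of the Mul1(+/+) mean. Slc39a7, which releases zinc from the endoplasmic reticulum, had 1633, 1606 and 1530 against 343, 100 and 710, and its limma adjusted p of 0.0108 just missed the limit. Of its exon bases, 80.7% are shared with the annotated transcript Gm20427 on the same strand, so that its reads may have been counted for either. Slc39a9 had means of 2710 and 1004. Slc30a3, the vesicular zinc carrier of neurons, had 27.8, 36.3 and 108 against 29.2, 12.3 and 13.2, with overlap. Slc39a2 was the single higher metal carrier, with 8.43, 6.20 and 19.6 against 202, 69.8 and 19.3, and its groups overlapped because Mul1(-/-) replicate 3 was at the level of Mul1(+/+) replicate 3.

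Among 9 carriers of inorganic ions, 5 were lower and 4 higher, and 1 fell and 2 rose, with a median log2 fold change of -1.49. Both bicarbonate carriers in the selection rose. Slc4a3, an exchanger of chloride for bicarbonate, had 9.27, 12.4 and 9.80 normalized read counts in Mul1(+/+) and 155, 35.5 and 36.9 in Mul1(-/-). Its log2 fold change was 2.39 (SE 0.57), and 1.70 without Mul1(-/-) replicate 1. With a library left out, the call held only without Mul1(-/-) replicate 3. Slc4a9 had 8, 3 and 7 reads against 17, 48 and 37, and its rate was 7.60 times higher, with an exact 95% interval from 4.58 to 13.3 that covers counting error only. Neither gene overlapped between the genotypes.

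Slc24a5, the potassium-dependent sodium-calcium exchanger known from melanosomes, had 57.3, 45.2 and 49.8 normalized read counts against 14.6, 9.80 and 15.8 and fell with a log2 fold change of -1.86. Of its exon bases, 39.5% are shared with Myef2 on the other strand. Slc8a1, the sodium-calcium exchanger, had 39, 29 and 39 reads against 3, 0 and 13, a rate ratio of 0.201 with an exact 95% interval from 0.111 to 0.341 (counting error only). Its limma adjusted p was 0.011. Slc26a1, the sulfate and oxalate exchanger of the hepatocyte's sinusoidal membrane, had 11103, 5671 and 7901 normalized read counts against 3133, 1744 and 4138. Its groups did not overlap, and its limma adjusted p was 0.0167. Slc34a2, a sodium-phosphate cotransporter, had 13.5, 30.1 and 172 in Mul1(+/+), the widest range of any member within that genotype at 12.8 times, against 10.2, 24.5 and 11.4. Slc26a4, an anion exchanger known from thyroid and inner ear, had means of 66.8 and 16.9. The higher Slc26a10 and Slc12a9 overlapped between genotypes in Mul1(-/-) replicate 3. Slc12a9 had 296, 298 and 292 in Mul1(+/+) and 2455, 1826 and 286 in Mul1(-/-).

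Carriers of nucleosides and nucleotide sugars had 6 lower members and 1 higher among 7, and 3 fell, with a median log2 fold change of -1.58. Slc35e1, of the nucleotide sugar carrier family of the endoplasmic reticulum and Golgi, had 1882, 1735 and 2242 normalized read counts in Mul1(+/+) and 425, 431 and 898 in Mul1(-/-). Slc35b4, a carrier of UDP-xylose and UDP-N-acetylglucosamine, had 1245, 1242 and 1513 against 497, 282 and 488. Slc28a1, which takes up pyrimidine nucleosides with sodium, had 23.6, 47.8 and 30.2 against 8.77, 7.35 and 7.90. All 3 fell without overlap, with log2 fold changes of -1.82, -1.70 and -1.90. The lysosomal nucleoside carrier Slc29a3, the GDP-fucose carrier Slc35c1 and Slc35e3 had Mul1(-/-) means at 33.2%, 35.2% and 37.7% of the Mul1(+/+) means and did not pass the limit. Transcripts of Slc35e3 share stretches of at least 95% identity with 2 other genes. The single higher member was Slc35b3, which brings the sulfate donor PAPS into the Golgi, with 330, 525 and 328 against 834, 947 and 693, without overlap and with a limma adjusted p of 0.0259.

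Of 6 carriers of bile acids, drugs and other organic ions, 5 were lower and 1 higher. Slco2b1, an uptake carrier of steroid sulfates and many drugs, lies on chromosome 7 from 99657804 to 99711340 (minus strand) and had 11905, 6707 and 8435 normalized read counts in Mul1(+/+) and 2750, 2582 and 3178 in Mul1(-/-). It fell with a log2 fold change of -1.63 (SE 0.40, limma adjusted p = 0.00939) and without overlap. Slc51b, the beta subunit of the basolateral bile acid exporter, lies on chromosome 9 from 65412714 to 65422955 (minus strand) and had 26.97, 7.97 and 6.53 against 65.8, 45.3 and 58.0. It rose with a log2 fold change of 2.20 (SE 0.53, limma adjusted p = 0.00916). Without Mul1(+/+) replicate 1, the highest of its group, the value was 2.79. With a library left out, the call held only without Mul1(-/-) replicate 3. Slc51a, which encodes the alpha subunit, was not among the deposited genes and was not analysed here.

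Slc22a7, an organic anion carrier of the sinusoidal membrane, had 2339, 2178 and 669 normalized read counts in Mul1(+/+) and 514, 242 and 328 in Mul1(-/-). Mul1(+/+) replicate 3 stood near the Mul1(-/-) values without reaching them, and the limma adjusted p was 0.011. Slco2a1, the prostaglandin carrier, had 3813, 1262 and 4965 against 1363, 845 and 971, and the groups overlapped by 1 library. Slc22a23 and Slc10a5, carriers with no well-established substrate, had Mul1(-/-) means at 34.5% and 37.03% of the Mul1(+/+) means.

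Around these carriers, 4 of 20 listed genes of bile acid synthesis and bile export were among the deposited genes and all 4 were lower. Cyp8b1, the sterol hydroxylase needed for cholic acid, had means of 14647 and 3498 normalized read counts in Mul1(+/+) and Mul1(-/-). Klb, the co-receptor for the hormone FGF15 that restrains bile acid synthesis, had means of 1751 and 447 and fell. The exporters Abcc3 and Abcg8 had Mul1(-/-) means at 48.4% and 45.2% of the Mul1(+/+) means.

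Of 5 carriers of mono- and dicarboxylates and of acetyl-CoA, 2 fell and 1 rose. Slc16a13, a hepatic member of the monocarboxylate family, lies on chromosome 11 from 70216789 to 70221064 (minus strand) and had 169, 296 and 370 normalized read counts in Mul1(+/+) and 59.9, 56.3 and 23.7 in Mul1(-/-). It fell with a log2 fold change of -2.59 (SE 0.49, limma adjusted p = 0.00692). The highest Mul1(-/-) value of Slc16a13 was well under its lowest Mul1(+/+) value. Slc16a4 moved the other way, with 12.6, 12.4 and 11.4 against 124, 124 and 25.5, and rose with a log2 fold change of 2.502 (SE 0.59), or 3.25 without Mul1(-/-) replicate 3. Slc13a3, a sodium-coupled dicarboxylate carrier, had 1573, 1758 and 693 against 491, 344 and 487. Slc33a1, which brings acetyl-CoA into the endoplasmic reticulum, had 2618, 3917 and 2879 against 7570, 14520 and 2478. Mul1(-/-) replicate 3 was under all Mul1(+/+) libraries, the log2 fold change was 1.07 (SE 0.60), and the limma adjusted p was 0.105.

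No sugar carrier passed the limit among 5 members, of which 3 were lower and 2 higher, with a median log2 fold change of -1.12. By limma, each of the 5 had an adjusted p between 0.0116 and 0.0309. Slc2a5, the fructose carrier, had 466, 523 and 361 normalized read counts in Mul1(+/+) and 68.7, 62.5 and 263 in Mul1(-/-). Slc2a9, a urate carrier that hepatocytes use to take urate up for breakdown, had 3055, 1934 and 2133 against 931, 796 and 1663. Neither overlapped between genotypes. Slc45a3 had 1029, 1475 and 2599 against 554, 500 and 1042, with Mul1(-/-) replicate 3 just above the lowest Mul1(+/+) library. The sodium-glucose cotransporter Slc5a1 and the hexose carrier Slc2a6 had higher means, 165 against 57.0 and 43.2 against 14.2.

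The remaining classes held 2 members each. Slc27a4, a fatty acid transport protein with acyl-CoA synthetase activity, had 2579, 2640 and 2461 normalized read counts in Mul1(+/+) and 728, 424 and 1406 in Mul1(-/-), without overlap and with a limma adjusted p of 0.0119. Slc27a3 of the same family had 14.3, 42.5 and 40.02 against 248, 116 and 65.0, also without overlap. The main hepatic members Slc27a2 and Slc27a5 were not among the deposited genes and were not analysed here. Slc46a1, the folate carrier, had means of 2190 and 1059. Slc19a3, a thiamine transporter on chromosome 1 from 83012523 to 83038448 (minus strand), had 5, 4 and 1 reads against 29, 28 and 52. Its rate was 14.6 times higher, with an exact 95% interval from 7.65 to 31.3 (counting error only), and it rose with a log2 fold change of 3.57 (SE 0.48, limma adjusted p = 0.00298). Slc17a4 and the vesicular glutamate carrier Slc17a8 had Mul1(-/-) means at 42.04% and 33.5% of the Mul1(+/+) means. The scaffold gene Slc9a3r1 had 16762, 14331 and 9767 against 5374, 3460 and 5671, and the pseudogene Slc2a4rg-ps had 45.5, 59.3 and 61.3 against 989, 459 and 105.

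**Figure D3:**
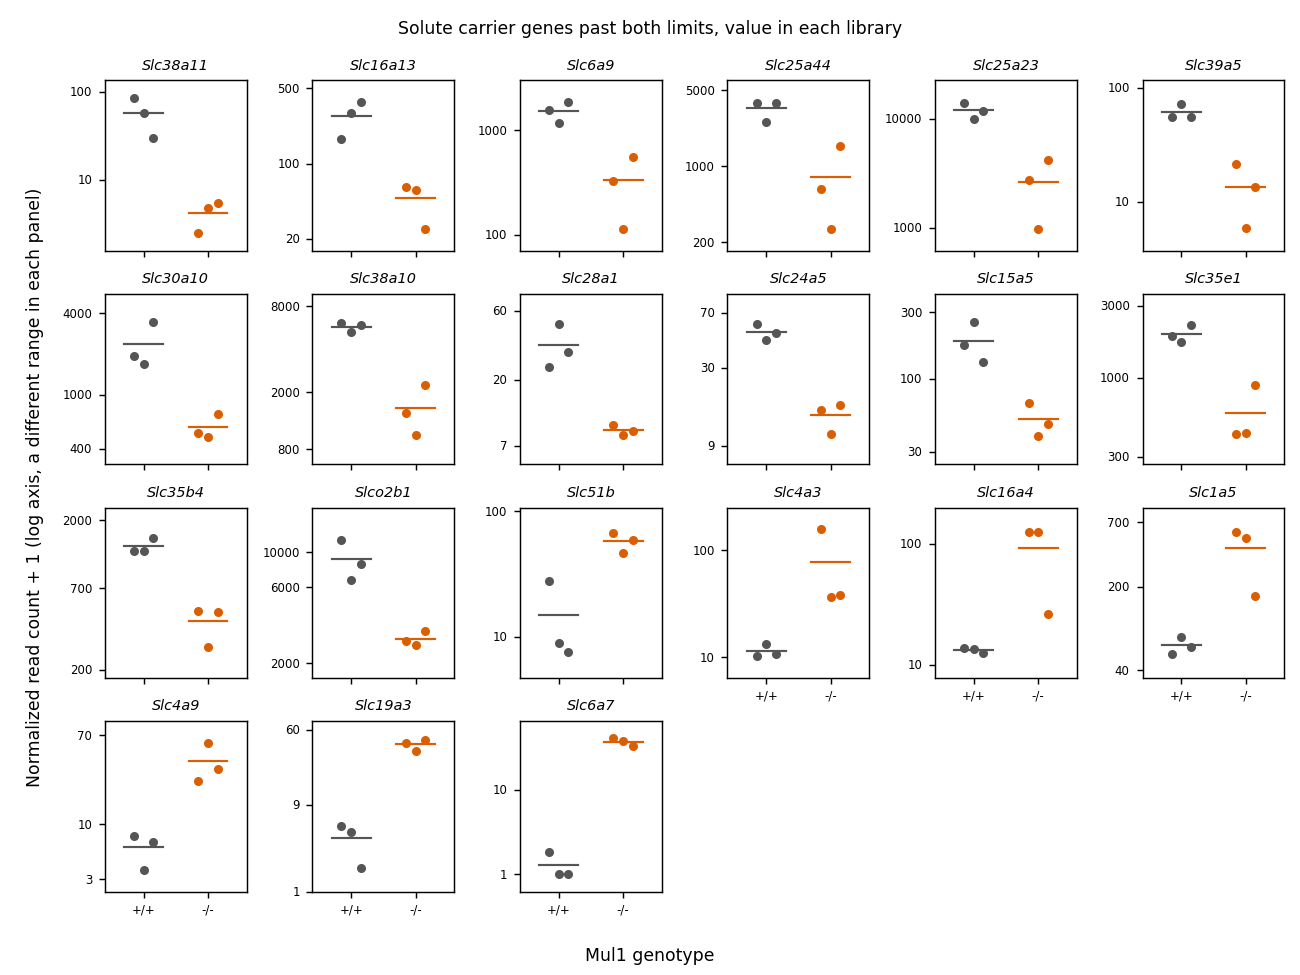
Normalized read count + 1 (log axis, with its own range in each panel) in each library for 21 of the 22 members past both limits, ordered by log2 fold change, with points for libraries in replicate order and lines for group means. In each panel the 3 Mul1(-/-) libraries (orange) lie wholly below or wholly above the 3 Mul1(+/+) libraries (grey), from Slc38a11 at -3.73 to Slc6a7 at 4.91.

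Across families, both directions could occur within one family. Family 25 had 7 lower and 4 higher members, families 35 and 38 had 4 lower and 1 higher each, and family 39 had 3 lower and 1 higher. All 3 members of family 30, both of family 41, both of family 22, both of family 17 and both Slco genes were lower, and both of family 4 were higher. Families 2, 15 and 27 were split evenly, where family 2 counts the pseudogene. Members that neighbour each other on a chromosome were few: Slc41a1 and Slc45a3 lie 114102 bases apart on chromosome 1, Slc38a10 and Slc25a10 lie 340494 bases apart on chromosome 11, and all 4 were lower.

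The Mul1(-/-) libraries did not depart equally from Mul1(+/+). For the 53 lower members the median difference from the Mul1(+/+) mean was -1.49, -2.003 and -1.29 on the log2 scale in Mul1(-/-) replicates 1, 2 and 3, and for the 22 higher members it was 2.99, 2.23 and 0.98. Replicate 3 was the nearest to the Mul1(+/+) mean for 30 of the 53 and for 17 of the 22. The lower genes of the whole table had medians of -1.35, -1.88 and -1.11, in the same order as the lower members. The higher genes of the table had medians of 1.88, 2.001 and 1.15, so that replicate 2 was the farthest there and replicate 1 among the higher members. Between 2 libraries of Mul1(+/+) the median absolute log2 difference over the members was 0.34 to 0.46, between 2 libraries of Mul1(-/-) 0.53 to 0.83, and between genotypes 0.99 to 2.22. Of the 11 members with overlapping groups, Slc33a1, Slc5a1, Slc26a10, Slc12a9, Slc15a2 and Slc39a2 were higher and Slc34a2, Slco2a1, Slc30a3, Slc25a25 and Slc45a3 lower.

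**Figure D4:**
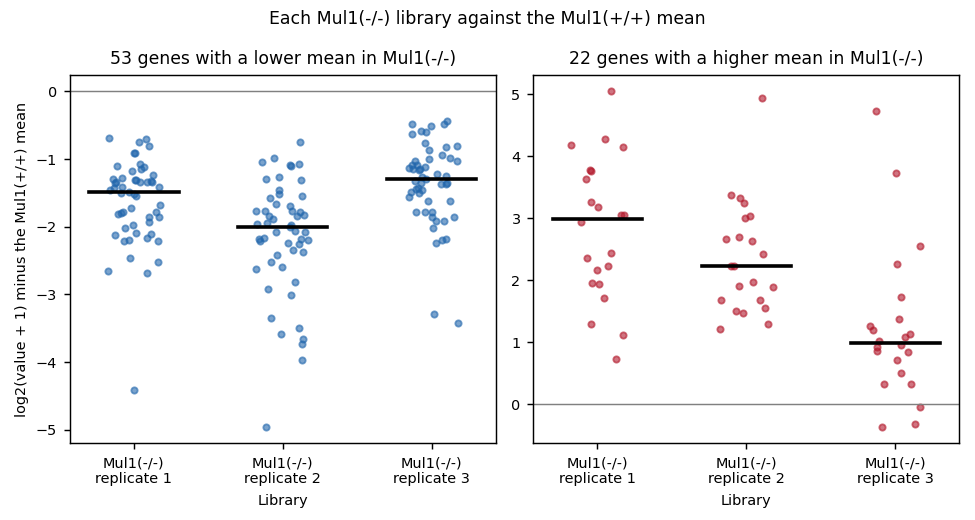
Log2(normalized read count + 1) minus the Mul1(+/+) mean in each Mul1(-/-) library, for the 53 lower members (left, blue) and the 22 higher members (right, red), with black lines at the medians. The medians are -1.49, -2.003 and -1.29 on the left and 2.99, 2.23 and 0.98 on the right, so replicate 3 lies nearest 0 in both panels.

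Depth and cell markers stood beside these results as follows. The reads on the deposited genes came to 11932163 to 15385822 per library, of which SLC members took 1.87% to 2.02% in Mul1(+/+) and 0.490% to 1.04% in Mul1(-/-). Of listed hepatocyte markers, 3 of 10 were among the deposited genes (Apob, Tat and Hnf4a), none of them at 0 in any library, and all 3 were lower, with a summed level of 181863 to 290795 normalized read counts in Mul1(+/+) and of 105171 to 106048 in Mul1(-/-). Of cholangiocyte markers, 4 of 8 were present (Krt19, Krt7, Epcam and Spp1), all higher, with sums of 1292 to 1891 against 4878 to 5100. In Mul1(-/-) replicates 1 to 3, Krt19 was 1151, 176 and 147, Krt7 251, 130 and 94.9, and Epcam 361, 268 and 204. Spp1, the largest part of the sum, went the other way, with 3336, 4304 and 4613. Of the 22 higher SLC members, 17 were highest in replicate 1, 4 in replicate 2 and 1 in replicate 3. This share was not counted over all higher genes of the table. The part of cholangiocytes in the higher SLC members was not tested. Of stellate cell markers 1 of 8 (Dcn, 3452 to 4335 against 5569 to 24011), of lymphocyte markers 1 of 8 (Cd8a, 4.90 to 28.3 against 33.1 to 115) and of neutrophil markers 1 of 6 (Csf3r, 46.6 to 64.1 against 51.8 to 197) were present and higher. Of endothelial markers 2 of 8 (sums of 3352 to 3910 against 1184 to 2140) and of erythroid markers 1 of 6 (Alas2, 5052 to 7563 against 803 to 4287) were present and lower. Of 8 macrophage and 5 adipocyte markers 0 were among the deposited genes. The part of any of these in the SLC values was not tested.

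Genes that differ between male and female mouse liver varied among the Mul1(+/+) libraries. Of 24 listed, 8 were among the deposited genes, 3 higher and 5 lower, with sums of 134385 to 465741 in Mul1(+/+) and of 506844 to 811488 in Mul1(-/-) that consisted mostly of Mup20 in Mul1(-/-) (479843 to 788263). In Mul1(+/+) replicates 1 to 3, Mup20 had 71106, 281086 and 386908. The list was not split by the sex in which a gene is higher, so these counts and sums have no direction of sex. Cyp2b13 had 1442, 528 and 21.2 normalized read counts in Mul1(+/+) replicates 1 to 3 and 11.7 to 21.96 in Mul1(-/-), and its groups overlapped. Cyp2b9 had 12308, 7008 and 1424 against 779, 535 and 713 and fell. Besides Cyp2b13, Cyp2b9 and Elovl3, the lower ones were Cyp2d9 and Acot3, and the higher ones were Mup20, Cyp4a12b and Cyp2a4. Elovl3 had 4394, 6894 and 17408 in Mul1(+/+) and 1300, 579 and 1708 in Mul1(-/-) and fell. Cyp2a4 had 119, 52.3 and 46.6 against 967, 3766 and 4634 and rose, with a limma adjusted p of 0.00179. Of the 75 SLC members, 12 had the same order of Mul1(+/+) libraries as Cyp2b13 and 7 had the order of Elovl3. The share of all genes of the table with either order was not counted, so neither count sets the members apart. Whether sex had a part in the SLC members was not tested.

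Other genes of transport that do not carry an Slc symbol gave a mixed picture. Of 33 listed carriers with other names, 6 were among the deposited genes, 3 higher and 3 lower, and 0 were called in the limma fit. All 6 had an unadjusted limma p under 0.05, which is not independent evidence in a table selected on these same libraries. Mpc2, a subunit of the mitochondrial pyruvate carrier, had means of 10189 and 23552 normalized read counts in Mul1(+/+) and Mul1(-/-), the sideroflexins Sfxn4 and Sfxn5 had 5.07 and 24.8, and 1736 and 563, and the ammonium carrier Rhbg had 115 and 407. The phosphate exporter Xpr1 had 2080 and 696, and the mitochondrial calcium uniporter Mcu 1184 and 408. Of 12 listed partner and trafficking genes 3 were present, all lower, among them Slc9a3r1 and the scaffold gene Pdzk1, which fell from a mean of 3128 to 706.

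Of 24 listed regulators of liver transporter genes, 9 were among the deposited genes, 7 lower and 2 higher, with a median log2 fold change of -1.48. Only Ppara, the fatty acid sensing nuclear receptor, passed the limit, with means of 7382 and 2178 normalized read counts. Hnf4a, Rxra, Stat5b, Srebf1 and Cebpa had Mul1(-/-) means between 31.7% and 49.1% of the Mul1(+/+) means. Ddit3 had means of 317 and 635, and Mlxipl 4916 and 11730 with overlapping groups. How these genes bear on the SLC members was not tested.

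Of a list of 86 transporters with a known role in the liver, 24 were among the deposited genes, 20 lower and 4 higher. The higher ones were Slc1a5, Slc25a4, Slc33a1 and Slc51b. As the table holds 19.2% of the 385 annotated protein-coding SLC genes, nothing is shown here of the others, which include the main bile acid, glucose and organic cation uptake carriers of hepatocytes.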

How the data were processed

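mRNA-seq libraries of liver from 3 Mul1(+/+) and 3 Mul1(-/-) mice on HFD were made, sequenced and analysed for the authors by GENEWIZ, and the groups were compared by the authors with DESeq2 and its Wald test. The aligner, counter, build and annotation are not given in the sources used here. The authors deposited normalized read counts for 3542 selected genes, together with their own comparison as a log2 fold change and a p-value before and after adjustment, which were read only to describe the selection. All values under 10000 were whole multiples (within 0.1) of the value of 1 read, which was 0.817 to 1.46 per library. Reads recovered in this way gave totals and, by an exact conditional test of rates, the intervals. Since only selected genes were deposited, these totals are not sequencing depths.

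A pseudocount of 1 was added without a filter, and genotype was the single term of the model fitted by limma 3.58.1 (R 4.3.3). Such fold changes understate those of low genes. The script was tested on simulated data. Members, substrate classes, lists and limits were chosen with earlier results of these data known. Named with values in every library were the members past both limits and those of a list of 86 liver transporters, and others were added for their class. A few genes of the counts are not reported one by one here. Coordinates and transcript lengths are from GENCODE M21 (GRCm38). Exons of 25 members overlap another annotated gene. Transcripts were compared with blastn 2.17.0 (at least 95% identity over 200 bases). Promoter windows are from RefSeq GRCm38.p6. Alternatives were other pseudocounts, a filter, rescaled libraries, limma-trend, a replicate block, another limit and each library left out.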

Additional observations from a re-analysis of the deposited data

How the results depend on the processing

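On the deposited scale 7 members rose and 15 fell, with a median log2 fold change of -1.449 over the members. The counts of rises and falls became 4 and 10 with a pseudocount of 0.5, 10 and 30 with a pseudocount of 10, 13 and 36 with limma-trend, 4 and 39 after rescaling by the median ratio (median log2 fold change -2.099), 8 and 11 after rescaling by the total, and 20 and 51 at an adjusted p limit of 0.05. A mean value of at least 10 left both counts as they were. Without each library in turn the rises ranged from 1 to 20, the falls from 0 to 38 and the median from -1.481 to -1.242. With the replicate number as a block 0 members rose and 0 fell, and 0 of the 3542 genes were called. The unadjusted limma p was under 0.05 for 68 members, against 71 without the block. As the members had been selected on these same libraries, neither count is independent evidence. Deviations of same-numbered libraries from their group means had correlations of 0.022, 0.352 and 0.054 over all genes. Over the members the correlations were -0.229, 0.164 and -0.036, and nothing in the labels pairs these libraries. The 40 genes named by rule kept their direction in every setting that was run. Of the 22 called members, calls were lost by 8 with a pseudocount of 0.5, by 1 with a pseudocount of 10 or with limma-trend, by 3 after rescaling by the median ratio, by 4 after rescaling by the total and by 22 with the block. Of the alternatives planned, the edgeR and DESeq2 tests on recovered reads were not run. Over the table the calls were 591 rises and 263 falls, 236 and 1030 after rescaling by the median ratio, 709 and 171 after rescaling by the total, 467 and 172 with a pseudocount of 0.5, 779 and 680 with a pseudocount of 10, and 964 and 905 with limma-trend. With each library left out in turn, the table's rises ranged from 9 to 1595 and its falls from 1 to 1078. The cause of these shifts was not tested. Few reads limit Slc6a7, Slc19a3, Slc4a9, Slc25a18, Slc38a11, Slc8a1 and Slc28a1, and genes outside the selection could not be seen.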
